A study of Mus musculus with 33 samples.

Results

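The genes of MHC class I and class II antigen presentation were followed in RNA-seq counts from mouse mammary tumours. The members were 32 genes given by symbol, 21 of class I and 11 of class II, and each matched 1 of the 54532 rows of the count table. The study treated transplanted tumours with vehicle or with RP-6306, an inhibitor of the kinase PKMYT1, and its design text also names a comparison of cyclin E transgenic with PyMT tumours. All samples carry the genotype label FVB and the tissue label mammary tumour. M20_7 tumours (n = 4) received RP-6306 at 20 mg/kg, and their VEH_7 counterparts (n = 3) received vehicle. MYT tumours (n = 11) also received RP-6306 at 20 mg/kg, and VEH tumours (n = 4) received vehicle. SPON (n = 5) and WT (n = 5) tumours have a treatment label of none. Not given in the labels are the meaning of the suffix _7, the length of treatment, the age of the mice, whether each tumour of a group had its own host, and which of SPON and WT is the cyclin E or the PyMT tumour. One field gives the dose per day and another gives it with an abbreviation for a twice-daily schedule. The growth protocol of every sample speaks of transplanted tumours, SPON and WT included.

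MHC class I molecules are made by nearly all nucleated cells. They consist of a heavy chain (H2-K1, H2-D1 and the Q and T genes in mice) and beta-2 microglobulin (B2m), and they show peptides from the cell's own proteins to CD8 T cells. Those peptides are cut by the proteasome, whose inducible subunits are Psmb8, Psmb9 and Psmb10 and whose activator is built from Psme1 and Psme2. The transporter Tap1 and Tap2 moves them into the endoplasmic reticulum, where Tapbp, Tapbpl, Calr and Pdia3 help to load them and Erap1 trims them, and Nlrc5 is a transcriptional activator of class I genes. Class II molecules (H2-Aa with H2-Ab1, and H2-Eb1 with an alpha chain) are made mainly by dendritic cells, macrophages and B cells and show engulfed proteins to CD4 T cells. The invariant chain Cd74 guards their groove, the protease Ctss cuts it away, H2-DMa with H2-DMb1 or H2-DMb2 exchanges its last fragment for a peptide, H2-Oa with H2-Ob restrains that exchange, and Ciita is the activator that class II genes require.

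Promoter stretches are shown for H2-Aa, H2-Eb1, H2-DMb1 and H2-Ob in class II and for H2-K1, H2-D1, H2-Q4 and H2-Q7 in class I. In each, capitals mark matches to motifs searched on both strands. The Y box was searched as ATTGG, which reads CCAAT on the other strand, and the X box of class II genes as GNAACNNTGANG or GNAACNNNTGANG. A site of the NF-kB type was searched as GGGGANTCCC and a site of the interferon response type as GAAANNGAAA. The letters were chosen with these promoters in view. The class II genes shown are those with an X box match. H2-Oa, H2-DMa and H2-DMb2, where only the Y box matched, are left out, as is H2-Q6 in class I. Sequences are from RefSeq on GRCm38.p6, and the 26 members matched by symbol in its promoter table were searched from 250 bases before to 50 bases after the start site. Tap2, Tapbpl, Nlrc5, H2-Ab1, Cd74 and Ciita had no match there and were not searched.
H2-Aa (chr17:34287857-34287914, minus strand): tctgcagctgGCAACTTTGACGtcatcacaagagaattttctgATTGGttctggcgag
H2-Eb1 (chr17:34305766-34305846, plus strand): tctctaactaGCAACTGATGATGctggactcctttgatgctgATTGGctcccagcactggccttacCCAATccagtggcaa
H2-DMb1 (chr17:34153087-34153144, plus strand): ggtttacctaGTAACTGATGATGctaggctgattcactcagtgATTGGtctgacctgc
H2-Ob (chr17:34238808-34238862, plus strand): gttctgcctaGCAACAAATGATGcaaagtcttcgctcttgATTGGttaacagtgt
H2-K1 (chr17:34000349-34000468, minus strand): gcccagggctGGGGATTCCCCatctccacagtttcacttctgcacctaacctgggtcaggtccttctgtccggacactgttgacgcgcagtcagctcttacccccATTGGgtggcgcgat
H2-D1 (chr17:35262913-35263055, plus strand): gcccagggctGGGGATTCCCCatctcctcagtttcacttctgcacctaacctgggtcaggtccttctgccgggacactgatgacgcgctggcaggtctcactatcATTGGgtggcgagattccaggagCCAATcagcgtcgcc
H2-Q4 (chr17:35379528-35379576, plus strand): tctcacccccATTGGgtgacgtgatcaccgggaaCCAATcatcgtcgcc
H2-Q7 (chr17:35439012-35439153, plus strand): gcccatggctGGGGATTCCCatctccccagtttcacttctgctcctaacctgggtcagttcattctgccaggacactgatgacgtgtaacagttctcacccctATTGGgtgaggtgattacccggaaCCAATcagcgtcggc

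An X box in either spacing was found in 4 of the 26 member promoters (H2-Aa, H2-Eb1, H2-DMb1 and H2-Ob) and in 1.81% of 32851 promoters. The NF-kB type site was found in 4 member promoters (H2-K1, H2-D1, H2-Q6 and H2-Q7) and in 0.323% of all promoters. Since that motif is nearly its own reverse complement, matches on the opposite strands overlap in H2-K1, H2-D1 and H2-Q6. The interferon response type site was found in 6 member promoters and in 3.44% of all promoters, and the Y box in 20 member promoters and in 37.4% of all. A match is a description of letters and not a bound site. Tap1 and Psmb9 lie head to head on chromosome 17, with 225 bases between their RefSeq start sites, so that their promoter windows share 275 bases. In GENCODE M21 the bounds of these genes overlap, with Tap1 from base 34187553 and Psmb9, on the minus strand, up to base 34187764. Of the 32 members, 20 lie on chromosome 17.

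The 7 libraries of the _7 set held 26517748 to 34637096 counts, and the 25 others held 13701115 to 20105407. Levels are given as CPM, counts scaled to library size, with TMM scaling, and a change is called where the adjusted p of edgeR's quasi-likelihood test is under 0.05. Cell type markers set the groups apart. Summed CPM of 10 epithelial markers was 57.6 to 87.8 in M20_7, 29.8 to 97.0 in VEH_7, 4105 to 12112 in MYT, 626 to 1816 in VEH, 4292 to 12173 in SPON and 4118 to 5191 in WT. Keratins and cadherin of a mammary epithelium were thus low in both groups of the _7 set. Summed CPM of 10 mesenchymal markers was high in the _7 set and in VEH, at 12802 to 16011 in M20_7, 14612 to 20311 in VEH_7 and 10848 to 16499 in VEH, and was 1347 to 4106 in MYT, 956 to 2494 in SPON and 622 to 1352 in WT. Summed CPM of 10 macrophage markers had a median of 2721 in M20_7, 3120.4 in VEH_7, 985 in MYT, 2193 in VEH, 571 in SPON and 432 in WT. All 10 macrophage markers were detected in every group. In bulk tumours, fewer cells of a type and less RNA per cell cannot be told apart. Several class I genes are near copies of each other: the share of 100-base windows of their transcripts that recur in another gene was 12.0% for H2-Q7, 10.8% for H2-Q6, 8.86% for H2-T22 and 0.957% for H2-K1, and it was 11.3% for H2-DMb1, 10.3% for H2-DMb2 and 18.4% for Psme2. These shares are not bounds on the error of the levels, which also depends on the level of the gene that shares the windows. How many reads were assigned to the wrong gene was not tested. FVB mice carry another MHC haplotype than the C57BL/6J reference genome, and the part of this in the levels was not tested.

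Class II genes were highest in the _7 set and lowest in SPON. Among the 11 members, the highest group median was in M20_7 for 9 and in VEH_7 for the other 2, and the lowest was in SPON for 8. Per kilobase of exon, Cd74 and Ctss were the most abundant class II members in the _7 set, with medians of 672 and 372 CPM per kilobase in M20_7. H2-Aa and H2-Ab1, the chains of one dimer, lay close together at 113 and 105 CPM per kilobase in M20_7. H2-Eb1, a further beta chain gene, was far lower at 2.42 CPM per kilobase. H2-Ea-ps, annotated as the pseudogene of its alpha chain and added after its values had been seen, stood at 1.60 to 3.16 CPM in M20_7 and at 0.484 to 1.93 CPM in MYT. Whether a dimer with H2-Eb1 was made cannot be read from RNA levels.

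**Figure D1:**
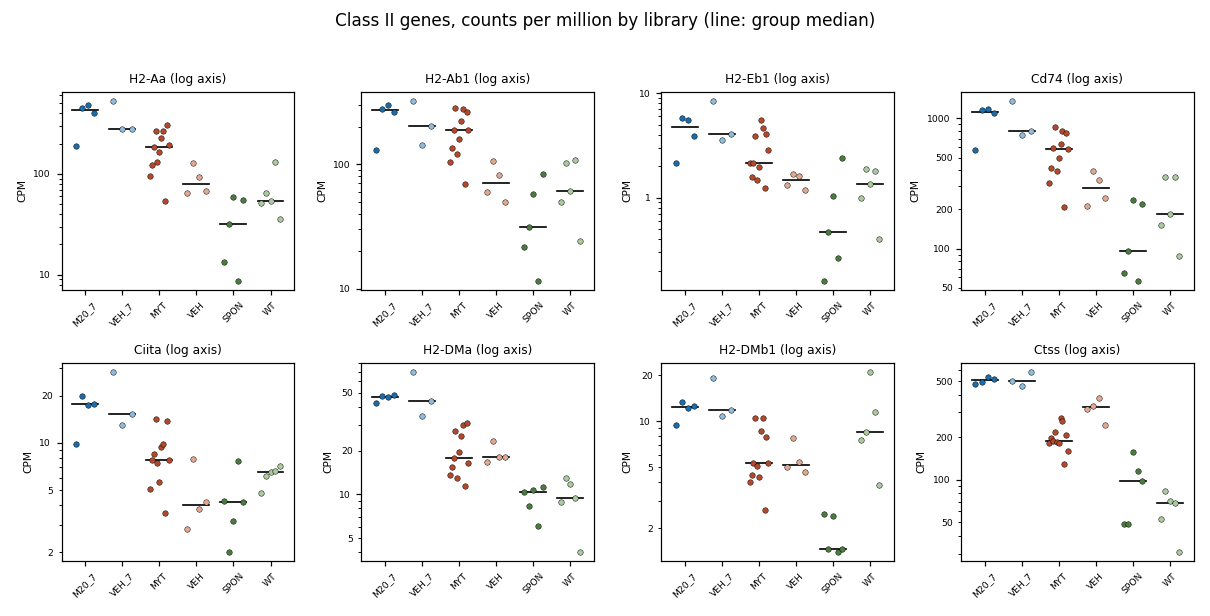
CPM (log axis) of 8 class II genes in each library of the 6 groups, with a line at the group median. H2-Aa, H2-Ab1 and Cd74 step down from the _7 groups through MYT to VEH and SPON, whereas every MYT library lies below 3 of the 4 VEH libraries for Ctss.

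The order of the 6 groups was the same for H2-Aa, H2-Ab1, H2-Eb1 and Cd74, with M20_7 and VEH_7 above MYT, then VEH, WT and SPON. H2-Aa had medians of 427 and 279.7 CPM in M20_7 and VEH_7, 184 CPM in MYT, 79.8 CPM in VEH, 31.8 CPM in SPON and 53.4 CPM in WT. The ranges of the neighbours in that order overlapped: M20_7 spanned 190.3 to 479 CPM, VEH_7 spanned 277 to 527 CPM, MYT spanned 54.5 to 305 CPM, VEH spanned 64.3 to 127 CPM, SPON spanned 8.73 to 58.6 CPM and WT spanned 35.4 to 131 CPM. Within groups, class II genes spread most in MYT, SPON and WT, where the highest library stood a median of 4.10, 4.15 and 4.52 times above the lowest, against 1.86 times in VEH. A ratio of highest to lowest tends to grow with the number of libraries, which was 11 in MYT, 5 in SPON, 5 in WT and 4 in VEH. MYT replicate 9 was the lowest of the 11 MYT libraries for 10 of the 11 class II members and for 11 of the 21 class I members.

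Class I genes were also highest in the _7 set, but their low end lay elsewhere. The highest group median was in M20_7 for 11 of the 21 members, and the lowest was in VEH for 9 and in WT for 6. B2m and H2-D1 were the most abundant members per kilobase, with medians of 1634 and 912 CPM per kilobase in MYT and 1041 and 532 CPM per kilobase in VEH. H2-K1 stood at 338 CPM per kilobase in MYT and 163 CPM per kilobase in VEH. The nonclassical heavy chains H2-T22 and H2-T23 were low, at 3.89 and 5.56 CPM per kilobase in MYT. SPON replicate 3 stood apart in class I: it had 4892 CPM of H2-K1, against 523 to 1480.5 CPM in the 4 other SPON libraries, and was the highest SPON library for B2m (4279.8 CPM), H2-D1 (9149 CPM), H2-Q7 (509 CPM) and Nlrc5 (168 CPM) too. Its H2-Aa level of 58.6 CPM lay beside the 55.0 CPM of SPON replicate 5.

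**Figure D2:**
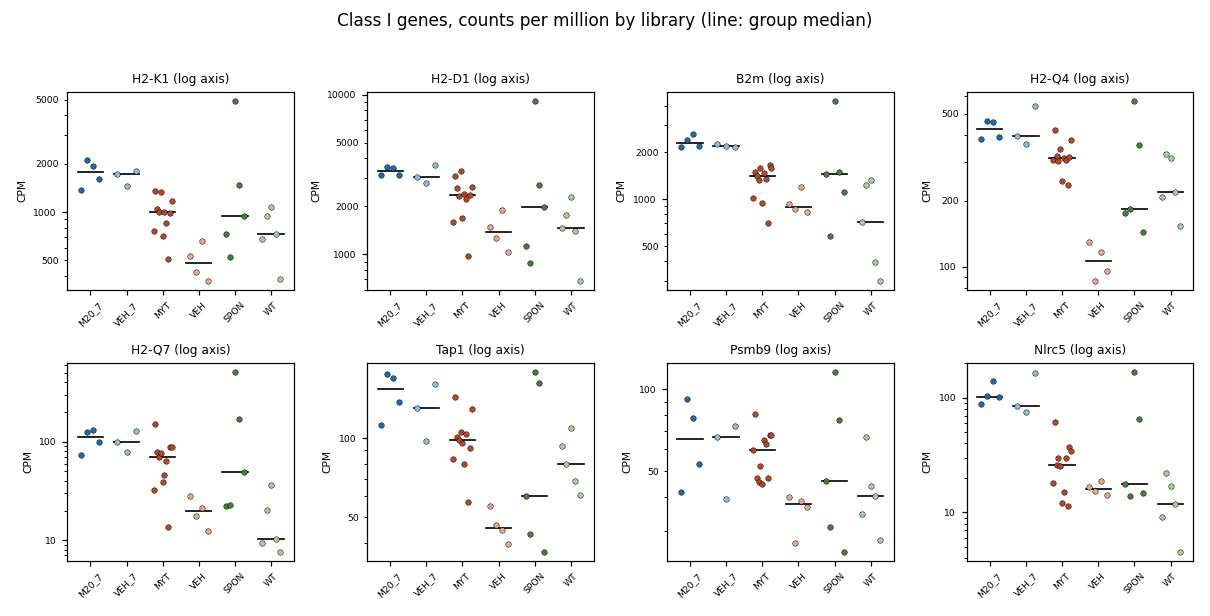
CPM (log axis) of 8 class I genes in each library of the 6 groups, with a line at the group median. VEH holds the lowest group median for H2-K1, H2-D1, H2-Q4, Tap1 and Psmb9, and 1 SPON library, replicate 3, lies far above the other SPON libraries for H2-K1, H2-D1, B2m, H2-Q7 and Nlrc5.

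In the _7 set, no class I or class II gene was called between RP-6306 and vehicle. H2-K1 had 1362, 2093, 1919 and 1615 CPM in M20_7 tumours, against 1731, 1442 and 1800.2 CPM in VEH_7 tumours. H2-Aa had 190.3, 453, 479 and 401 CPM in M20_7 and 527, 277 and 279.7 CPM in VEH_7. The groups overlapped for both of these genes, as they did for all 32 members, and M20_7 replicate 1 was the lowest of its group for 10 of 11 class II and 17 of 21 class I members. The log2 fold changes of M20_7 over VEH_7 were 0.09 ± 0.17 (adjusted p = 0.948) for H2-K1 and 0.10 ± 0.32 (adjusted p = 0.968) for H2-Aa, each ± SE.

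Of 16699 genes tested in this comparison, 0 were called (0%), and 0 of 21 class I and 0 of 11 class II members were called. At an unadjusted p under 0.05, edgeR marked 1033 genes and no member. DESeq2 called 55 genes and edgeR without the filter on low counts called 6, with 0 members in either. The median log2 fold change was 0.10 for class I and 0.06 for class II members, beside 0.01 over all genes tested, and it ran over 0.01 to 0.30 in class I and over -0.12 to 0.26 in class II as each library was left out. The ranges of M20_7 and VEH_7 did not overlap for 6.5% of all genes tested, 2.93% higher and 3.56% lower in M20_7. For the other role genes, B2m had 0.10 ± 0.11, H2-D1 0.09 ± 0.13, Tap1 0.21 ± 0.20, Psmb8 0.22 ± 0.24, Psmb9 0.17 ± 0.29 and Nlrc5 0.02 ± 0.27. Among class II genes, Cd74 had 0.06 ± 0.28, H2-Ab1 0.14 ± 0.31, H2-Eb1 -0.28 ± 0.40 and Ciita -0.19 ± 0.30. The smallest member p-values belonged to Psme2 (0.36 ± 0.17, adjusted p = 0.81), Psme1 (0.23 ± 0.15, 0.86) and Psmb10 (0.35 ± 0.24, 0.864) in class I, and to H2-Ob (0.61 ± 0.53, 0.89), H2-DMb1 (-0.21 ± 0.22, 0.912) and H2-Eb1 (-0.28 ± 0.40, 0.934) in class II. The H2-Ob value rested on M20_7 replicate 2, which had 11 CPM, against 2.18 to 3.24 CPM in the other M20_7 libraries, and without it the value was -0.22 (adjusted p = 0.985). That library also had the highest summed CPM of 8 B cell markers, 89.7, where the range was 8.22 to 89.7 in M20_7 and 6.32 to 6.75 in VEH_7; the part of this in the H2-Ob level was not tested.

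In the other treated set, 13 class I genes rose in MYT tumours, led by heavy chains, and 5 class II genes rose as well. H2-Q4, a Q region heavy chain, had a lowest, median and highest level of 237, 313 and 420.0 CPM in the 11 MYT tumours, against 129.7, 86.4, 117 and 95.3 CPM in the 4 VEH tumours. Tap1 had 57.2, 98.5 and 144 CPM in MYT and 55.1, 46.8, 44.5 and 39.4 CPM in VEH. For both genes every MYT library lay above every VEH library. H2-K1 had 512, 994 and 1346 CPM in MYT and 536, 424, 657 and 374 CPM in VEH, with overlap. The log2 fold changes of MYT over VEH were 1.60 ± 0.15 for H2-Q4 (adjusted p = 2.08e-07), 1.12 ± 0.18 for Tap1 (5.64e-05) and 1.0 ± 0.22 for H2-K1 (0.00101).

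These counts stand against a wide background, since 59.5% of the 16021 genes tested were called, 30.5% higher and 29% lower. In class I, 13 of 21 members rose and 1 fell. The ranges of MYT and VEH did not overlap for 4 of 21 class I members (H2-Q4, Tap1, Pdia3 and Psmb9, all higher in MYT) and overlapped for all 11 class II members. Over all genes tested, the ranges did not overlap for 35.1%, with 16.2% higher and 18.9% lower in MYT. The median log2 fold change was 0.50 over the class I members and 0.04 over all genes tested.

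By role, the heavy chains H2-Q7 (1.81 ± 0.45, adjusted p = 0.00226), H2-Q6 (1.96 ± 0.50, 0.00286), H2-D1 (0.72 ± 0.25, 0.0201) and H2-T22 (0.68 ± 0.22, 0.0134) rose, and H2-T23 did not pass (0.23 ± 0.14, 0.179). B2m, the shared light chain, had 708, 1405 and 1659.8 CPM in MYT and 928, 862, 1192 and 829 CPM in VEH, and rose with a smaller value than H2-K1 (0.50 ± 0.20, 0.0353). For B2m, 8 of the 11 MYT libraries lay above the VEH range. Of the peptide supply genes, Psmb8 (0.59 ± 0.15, 0.0026), Psmb9 (0.73 ± 0.17, 0.0011), Tap2 (0.46 ± 0.12, 0.00287) and the trimming enzyme Erap1 (0.48 ± 0.11, 0.00146) rose. Psmb10, the remaining inducible proteasome subunit, went the other way and fell (-0.63 ± 0.14, 0.000865), with 38.7, 48.1 and 72.5 CPM in MYT and 86.1, 80.1, 64.5 and 81.1 CPM in VEH. The proteasome activator subunits Psme1 (-0.16) and Psme2 (-0.22) did not pass. In the loading complex, Pdia3 rose (0.34 ± 0.10, 0.00835), while Tapbp (-0.13), Tapbpl (0.48) and Calr (-0.25) did not pass. Nlrc5, the class I activator, did not pass either: it had 11.5, 26.1 and 61.6 CPM in MYT and 16.8, 15.4, 18.9 and 14.2 CPM in VEH, with MYT libraries on both sides of the VEH range (0.78 ± 0.36, 0.0698).

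The calls of H2-Q4, Tap1, H2-K1, Psmb9, Erap1, H2-Q7, H2-Q6 and Psmb10 held in every other fit and without each library in turn. B2m lost its call without VEH replicate 1, 2 or 4 or MYT replicate 5, 10 or 11 (0.45 to 0.50, adjusted p = 0.0509 to 0.0997). H2-D1 lost its call without VEH replicate 2 (0.67, 0.064) or 4 (0.60, 0.0788). With all 32 libraries in 1 fit, Psmb8, Tap2, Pdia3, H2-T22, B2m and H2-D1 were not called (adjusted p = 0.0896 to 0.277). Nlrc5 was called without MYT replicate 6 (0.86, 0.0362), 7 (0.84, 0.049) or 9 (0.86, 0.0335), Tapbpl was called without MYT replicate 9 (0.56, 0.00409), and Calr was called, lower in MYT, without VEH replicate 4 (-0.32, 0.0428) or MYT replicate 5 (-0.28, 0.0385).

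**Figure D3:**
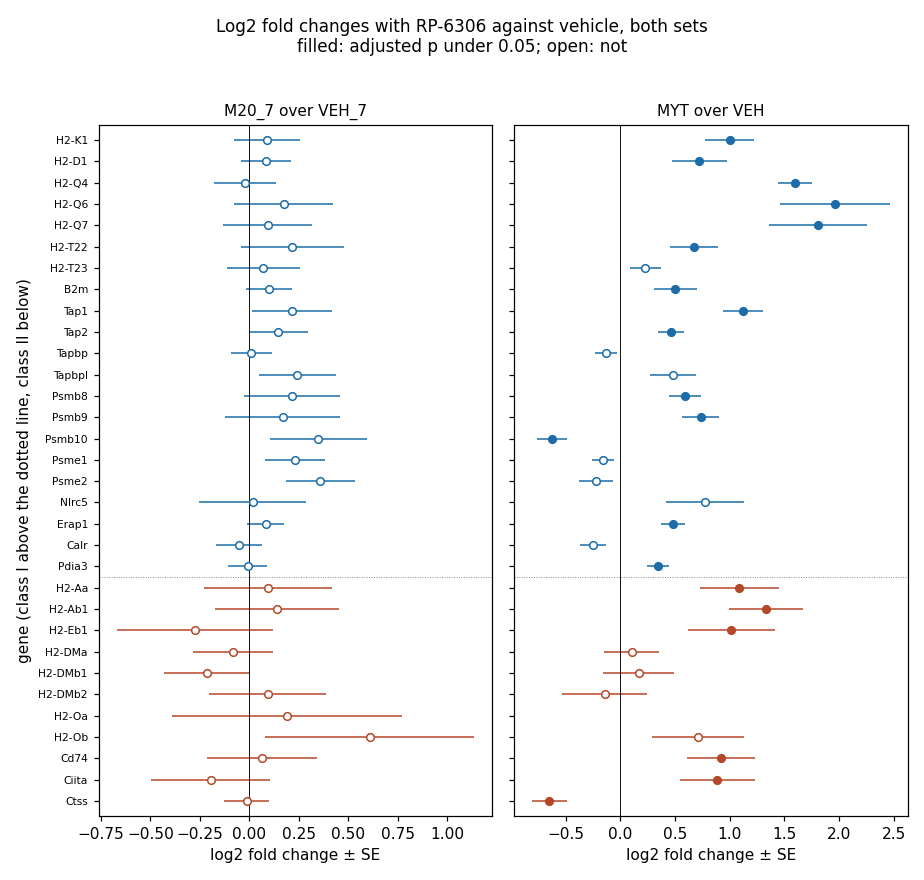
Log2 fold change ± SE of each member for M20_7 over VEH_7 (left) and MYT over VEH (right), with class I above and class II below the dotted line and filled points for adjusted p under 0.05. No point is filled on the left, and on the right 18 members are filled above 0 and 2 (Psmb10 and Ctss) below it.

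The 5 class II genes that rose in MYT were the chain genes H2-Aa, H2-Ab1 and H2-Eb1, the invariant chain Cd74 and the class II activator Ciita, while most macrophage markers fell. H2-Aa had 54.5, 184 and 305 CPM in MYT, against 64.3, 127, 92.4 and 67.1 CPM in VEH. H2-Ab1 had 68.7, 187 and 282 CPM in MYT, against 59.9, 106, 81.6 and 49.5 CPM in VEH. Most MYT libraries lay above the VEH range for both chains, and MYT replicate 9 was the lowest library of all 15 for H2-Aa. H2-Ab1 (1.33 ± 0.34, adjusted p = 0.00256), H2-Aa (1.09 ± 0.36, 0.0153), H2-Eb1 (1.01 ± 0.40, 0.0358), Cd74 (0.92 ± 0.31, 0.0166) and Ciita (0.89 ± 0.34, 0.034) rose. Ctss, the protease that cuts the invariant chain, fell, with 129, 188 and 273 CPM in MYT and 319, 332, 378 and 246 CPM in VEH (-0.65 ± 0.16, 0.00197). The exchange factors did not pass: H2-DMa had 0.10 ± 0.25, H2-DMb1 0.17 ± 0.32 and H2-DMb2 -0.14 ± 0.39, and H2-Ob had 0.71 ± 0.42.

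Of 11 class II members, 10 passed the filter on low counts (H2-Oa did not), and 5 of them rose and 1 fell, with a median log2 fold change of 0.80. Cd74 had 209, 586 and 854 CPM in MYT and 214, 398, 336 and 246 CPM in VEH, and Ciita had 3.59, 7.81 and 14.3 CPM in MYT and 2.83, 7.90, 3.77 and 4.21 CPM in VEH, with overlap for both. VEH replicate 2 was the highest VEH library for H2-Aa, H2-Ab1, Cd74 and Ciita. H2-Aa, H2-Ab1 and Ctss held in every other fit and without each library. Cd74 lost its call without VEH replicate 1 (0.80, adjusted p = 0.0536), and Ciita without VEH replicate 1, 3 or 4 or MYT replicate 4 (0.71 to 0.84, 0.0506 to 0.106). H2-Eb1, with at most 5.50 CPM in MYT and 1.67 CPM in VEH, lost its call without any of the 4 VEH libraries or without MYT replicate 4, 8 or 10 (0.92 to 1.08, 0.0517 to 0.088). Without VEH replicate 1 the count of called class II members was 3. With all 32 libraries in 1 fit, Cd74 (0.89, 0.0595) and H2-Eb1 (0.98, 0.109) were not called, and limma voom did not call H2-Eb1 (0.85, 0.0992).

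Many cell type markers differed between MYT and VEH as well, where 30.5% of all genes tested were higher and 29% lower. Of 10 macrophage markers, 9 were lower and 1 was higher in MYT, with summed levels of 754 to 1468 CPM in MYT and 2097 to 2852 CPM in VEH that did not overlap, and Csf1r, a receptor of macrophages, changed most clearly (-1.98 ± 0.20, adjusted p = 4.29e-07). Of 7 pan-leukocyte markers, 5 were lower and 0 higher, with summed levels of 198 to 383 CPM in MYT and 617 to 764 CPM in VEH. Of 10 dendritic cell markers, 9 were tested, of which 5 were lower and 2 higher, and their sums overlapped (31.3 to 78.3 CPM in MYT and 49.6 to 70.1 CPM in VEH). B cell markers summed to 1.87 to 10.6 CPM in MYT and 6.36 to 11.5 CPM in VEH, with 2 of the 2 tested lower. Of 8 T cell and NK cell markers tested, 3 were lower and 0 higher, with sums of 2.63 to 16.3 CPM in MYT and 10.5 to 76.6 CPM in VEH. Of 10 epithelial markers, 9 were higher in MYT and 0 lower. Of 10 mesenchymal markers, 8 were lower and 0 higher (median log2 fold change -2.47), with sums of 1347 to 4106 CPM in MYT and 10848 to 16499 CPM in VEH that did not overlap. No marker of these lists was at 0 over all libraries of MYT or VEH. The part of these shifts in the class I and class II results was not tested. H2-Aa per 100 CPM of macrophage markers had a lowest, median and highest value of 7.22, 17.0 and 27.6 CPM in MYT and 2.84, 3.22 and 5.97 CPM in VEH, so that no MYT library lay within the VEH range. This ratio is a description, and it was computed after the values had been seen.

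**Figure D4:**
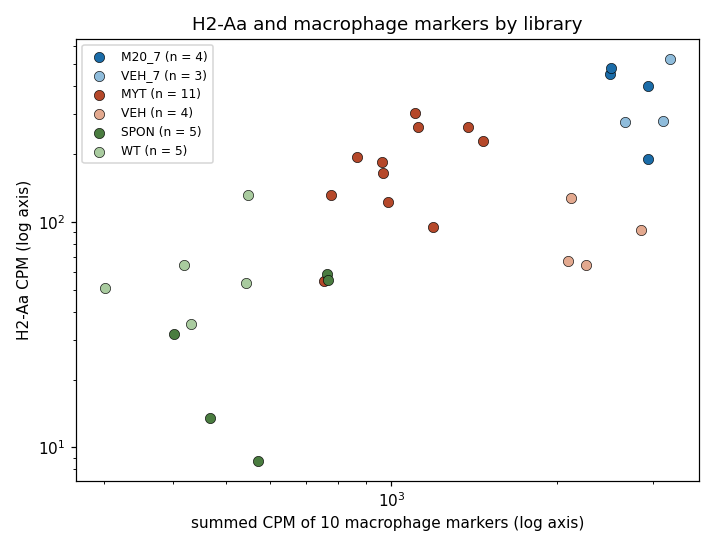
H2-Aa CPM against the summed CPM of 10 macrophage markers, 1 point per library, both on log axes. MYT libraries lie at lower macrophage sums than VEH libraries and mostly at higher H2-Aa, SPON and WT libraries lie at the low end of the macrophage sum, and the _7 groups lie at the high end of both.

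The log2 fold change of RP-6306-treated over vehicle tumours differed between the sets for 7 members, a smaller share than over all genes tested. MYT and VEH also differed in epithelial and mesenchymal markers, and the part of this in the differences was not tested. For the difference of the log2 fold changes (MYT over VEH minus M20_7 over VEH_7), 36% of 17095 genes were called, 17% with a positive and 18.9% with a negative difference, and among members 6 of 21 class I genes (5 positive and 1 negative) and 1 of 11 class II genes (negative) were called. H2-Q4 (1.63 ± 0.23, adjusted p = 1.7e-05), H2-Q6 (1.80 ± 0.68, 0.0413), H2-Q7 (1.73 ± 0.61, 0.0308), H2-K1 (0.92 ± 0.33, 0.0325) and Tap1 (0.92 ± 0.30, 0.0185) had positive differences. Psmb10 (-0.97 ± 0.28, 0.00933) and Ctss (-0.63 ± 0.24, 0.0462) had negative ones. The median difference was 0.41 over class I and 0.39 over class II members, beside 0.01 over all genes tested, and the class II median was 0.92 without M20_7 replicate 2 and 0.24 without VEH_7 replicate 1. H2-Ab1 (1.20 ± 0.52, 0.0736), H2-Eb1 (1.30 ± 0.60, 0.0986) and Ciita (1.09 ± 0.52, 0.104) followed Ctss in class II without passing, so for the class II chains a difference between the sets was not shown, although they were called in 1 set only.

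The differences of H2-Q4 and Psmb10 held in every other fit and without each library. With all 32 libraries in 1 fit, Tap1, H2-K1, H2-Q7, H2-Q6 and Ctss were not called (adjusted p = 0.182 to 0.309). Tap1 lost its call without VEH_7 replicate 3 (0.73, adjusted p = 0.082). H2-K1 lost it without VEH_7 replicate 1 or 3, M20_7 replicate 1 or 4, or VEH replicate 2 or 4 (0.80 to 0.88, 0.0613 to 0.0787), and H2-Q7 without the same 6 libraries (1.52 to 1.74, 0.0522 to 0.0854). H2-Q6 lost it without any VEH_7 library, M20_7 replicate 1 or 4, VEH replicate 2, 3 or 4, or MYT replicate 3, 10 or 11 (1.61 to 1.90, 0.0505 to 0.099). Ctss lost it without VEH_7 replicate 1 or 2, M20_7 replicate 2, 3 or 4, VEH replicate 1, 2 or 3, or MYT replicate 1, 2, 3, 5, 6 or 11 (-0.65 to -0.55, 0.0509 to 0.11). In the other direction, H2-Ab1 was called without VEH_7 replicate 2 (1.43, 0.0479) or MYT replicate 9 (1.29, 0.0316), and Ciita without VEH replicate 2 (1.45, 0.0367). H2-D1 was called without MYT replicate 9 (0.73, 0.0445), Erap1 without VEH replicate 2 (0.50, 0.0194) or MYT replicate 9 (0.44, 0.0279), and Pdia3 without MYT replicate 2 (0.37, 0.0415) or 9 (0.37, 0.0464). Psme1 was called without M20_7 replicate 1 (-0.48, 0.0428) or MYT replicate 1 (-0.43, 0.0498), and Psme2 without MYT replicate 1 (-0.64, 0.0352) or 7 (-0.64, 0.0349).

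Against SPON, 9 class II genes rose in MYT tumours, whereas 1 class I gene rose and 3 fell. H2-Aa had 54.5, 184 and 305 CPM in MYT, against 13.5, 31.8, 58.6, 8.73 and 55.0 CPM in SPON. Cd74 had 209, 586 and 854 CPM in MYT, against 64.4, 95.4, 235, 56.5 and 220.0 CPM in SPON. MYT replicate 9 reached into the SPON range for both genes. For H2-DMb1 the groups did not overlap, with 2.63, 5.35 and 10.5 CPM in MYT and 2.48, 1.45, 2.41, 1.40 and 1.45 CPM in SPON. In this comparison 28.5% of 15695 genes were called, 9.46% higher and 19.1% lower, and 9 of the 10 class II members tested rose and 0 fell. Only H2-DMa and H2-DMb1 of the 11 class II members had ranges that did not overlap, and no class I member did, beside 4.49% of all genes tested (2.1% higher and 2.38% lower in MYT).

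The log2 fold changes of MYT over SPON were 2.40 ± 0.47 for H2-Aa (adjusted p = 0.00126), 2.11 ± 0.43 for H2-Ab1 (0.0016), 2.0 ± 0.40 for Cd74 (0.00139) and 1.73 ± 0.35 for H2-DMb1 (0.00161). H2-Eb1 (1.69 ± 0.55, 0.0293), H2-DMb2 (1.66 ± 0.40, 0.00556), H2-DMa (1.07 ± 0.27, 0.00618), Ctss (1.05 ± 0.25, 0.00517) and Ciita (0.97 ± 0.34, 0.0396) also rose, and H2-Ob did not pass (0.98 ± 0.55, 0.194). The median log2 fold change was 1.68 over class II members and -0.08 over all genes tested. Without SPON replicate 5, H2-Eb1 had 2.56 in place of 1.69, and its call was lost without SPON replicate 1 (1.44, 0.0566) or 2 (1.57, 0.0627). Ciita lost its call without MYT replicate 4, 7, 8 or 10 or SPON replicate 1, 2, 3 or 5 (0.83 to 1.01, 0.0511 to 0.0839). The treatment and the tumour differ together between these groups, so their parts cannot be told apart.

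Of 21 class I members, 1 rose and 3 fell. Their median log2 fold change was -0.34, and it was 0.11 without SPON replicate 3, the library with the high class I levels. Tapbp, the loading chaperone tapasin, rose (0.80 ± 0.20, adjusted p = 0.0062), with 445, 544 and 594 CPM in MYT and 338, 186, 336, 466 and 169 CPM in SPON. Psme1 (-0.72 ± 0.13, 0.000686), Psme2 (-0.75 ± 0.25, 0.03) and H2-T23 (-0.72 ± 0.22, 0.0224) fell. By limma voom, Psme2 (-0.59, adjusted p = 0.0736) and H2-T23 (-0.61, 0.0504) were not called. The classical chains gave -0.86 ± 0.38 for H2-K1 (0.102) and -0.51 ± 0.42 for H2-D1 (0.373), and B2m gave -0.47 ± 0.33 (0.296), none of which passed. Tap1 (0.01 ± 0.31), Psmb8 (0.12 ± 0.26) and Psmb9 (-0.05 ± 0.27) were near 0, and Nlrc5 did not pass (-1.07 ± 0.50, 0.118). Without SPON replicate 3, H2-K1 had 0.10 (adjusted p = 0.822), H2-D1 0.47 (0.289), B2m 0.21 (0.587) and Nlrc5 -0.01 (0.989), so that the negative values of the first 3 turned positive and that of Nlrc5 was near 0. H2-T23 lost its call without that library (-0.33, 0.201), and Psme2 without SPON replicate 1 (-0.26, 0.263), which had 163 CPM of Psme2, or MYT replicate 2, 3, 4, 5, 6, 10 or 11 (-0.72 to -0.69, 0.0547 to 0.0615). Without SPON replicate 2, 7 class I members were called, with H2-K1 (-1.04, 0.0434), Psmb10 (-0.65, 0.0297) and Erap1 (0.53, 0.0092) added. Without SPON replicate 4, Tap2 was called (0.65, 0.00778), and Psmb10 was also called without SPON replicate 5 (-0.62, 0.0435) or MYT replicate 7 (-0.61, 0.0425).

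Beside the class II result, 6 of 10 macrophage markers were higher in MYT than in SPON and 0 were lower, with summed levels of 754 to 1468 CPM in MYT and 402 to 768 CPM in SPON. Of 7 pan-leukocyte markers, 3 were higher and 0 lower, and of 5 dendritic cell markers tested, 2 were higher and 0 lower. Over all genes tested, 9.46% were higher and 19.1% lower in MYT. All markers of these lists were detected in both groups. The part of these shifts in the class II result was not tested. H2-Aa per 100 CPM of macrophage markers had a lowest, median and highest value of 7.22, 17.0 and 27.6 CPM in MYT and 1.53, 7.16 and 7.92 CPM in SPON.

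Between SPON and WT, 1 class I gene rose and 1 class II gene fell. H2-DMb1, a chain of the peptide exchange factor, had 2.48, 1.45, 2.41, 1.40 and 1.45 CPM in SPON tumours, against 7.50, 8.52, 21.0, 11.5 and 3.85 CPM in WT tumours. H2-Q7, a Q region heavy chain, had 22.2, 22.9, 509, 169.9 and 49.5 CPM in SPON, against 9.45, 20.4, 36.3, 10.3 and 7.64 CPM in WT. Every SPON library lay below every WT library for H2-DMb1, the only member without overlap beside 9.73% of all genes tested (4.21% higher and 5.52% lower in SPON), whereas for H2-Q7 SPON replicates 1 and 2 lay within the WT range. The log2 fold changes of SPON over WT were -2.50 ± 0.47 for H2-DMb1 (adjusted p = 0.0113) and 3.20 ± 0.89 for H2-Q7 (0.0474).

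In this comparison 8.38% of 15558 genes were called, 4.52% higher and 3.86% lower, and the members' counts were 1 of 21 in class I and 1 of 10 tested in class II. The H2-DMb1 call held in every other fit and without each library. The H2-Q7 call was lost without SPON replicate 3 (1.98, adjusted p = 0.0988), without SPON replicate 4 (3.15, 0.0713) and without each of the 5 WT libraries (3.01 to 3.67, 0.0685 to 0.117). It was also lost by limma voom (2.42, 0.118). H2-T23 became lower in SPON by the test without SPON replicate 3 (-1.34, 0.0303), and H2-DMb2 without WT replicate 5 (-1.99, 0.0416).

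The median log2 fold change was 0.34 for class I and -0.66 for class II members, beside 0.07 over all genes tested. Without SPON replicate 3 the class I median was 0.06, beside 0.05 over all genes, and without SPON replicate 5 the class II median was -1.08. H2-K1 had 735, 523, 4892, 1480.5 and 947 CPM in SPON and 684, 947, 1068, 729 and 385 CPM in WT (1.17 ± 0.58, adjusted p = 0.222), and 3 of the 5 SPON libraries lay within the WT range. B2m (1.17 ± 0.57, 0.215), H2-D1 (1.06 ± 0.61, 0.297), Nlrc5 (2.12 ± 0.73, 0.0934) and H2-Q6 (2.01 ± 0.79, 0.133) had positive values that did not pass. Without SPON replicate 3 these values were 0.27 for H2-K1, 0.54 for B2m, 0.14 for H2-D1, 1.12 for Nlrc5 and 1.07 for H2-Q6. Tap1 (0.23), Psmb8 (0.63) and Psmb9 (0.46) were smaller and did not pass, with Psmb8 at 0.35 without SPON replicate 4 and Psmb9 at 0.06 without SPON replicate 3. In class II, H2-Aa had 13.5, 31.8, 58.6, 8.73 and 55.0 CPM in SPON and 51.0, 64.4, 53.4, 131 and 35.4 CPM in WT (-1.0 ± 0.52, 0.246). H2-Ab1 (-0.75 ± 0.53), Cd74 (-0.75 ± 0.49), Ciita (-0.55 ± 0.38), H2-Eb1 (-0.57 ± 0.70) and H2-DMb2 (-1.75 ± 0.54, adjusted p = 0.0658) were negative without passing, and Ctss was positive without passing (0.61 ± 0.36). Without WT replicate 4 H2-Aa had -0.63, without SPON replicate 4 Ciita had -0.89, without SPON replicate 5 H2-Ab1 had -1.17 and H2-Eb1 -1.39, and without SPON replicate 3 Ctss had 0.34. Macrophage markers were higher in SPON for 1 of 10 and lower for 0, with sums of 402 to 768 CPM in SPON and 300.2 to 549 CPM in WT. Their part in these values was not tested.

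The vehicle groups differed from each other in most members. H2-Q6, a Q region heavy chain, had 14.8, 11.3, 12.8 and 8.98 CPM in VEH tumours, against 84.4, 76.6 and 112 CPM in VEH_7 tumours. Nlrc5 had 16.8, 15.4, 18.9 and 14.2 CPM in VEH, against 84.0, 74.7 and 165 CPM in VEH_7. The VEH libraries lay below the VEH_7 libraries for both genes, without overlap. The log2 fold changes of VEH over VEH_7 were -2.92 ± 0.20 for H2-Q6 (adjusted p = 3.38e-05) and -2.73 ± 0.27 for Nlrc5 (0.00022). Beside 31% of 15555 genes called, 15.4% higher and 15.6% lower, 14 of 21 class I members fell and 2 rose, and 10 of 11 class II members fell and 0 rose.

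H2-Q7 (-2.35 ± 0.26, adjusted p = 0.000398), H2-Q4 (-2.02 ± 0.19, 0.000178), H2-K1 (-1.73 ± 0.20, 0.000429), Tap1 (-1.48 ± 0.18, 0.000615), B2m (-1.22 ± 0.15, 0.000647) and H2-D1 (-1.16 ± 0.20, 0.00353) fell, and Psmb9 fell by less (-0.74 ± 0.22, 0.0313). Psmb8 (-0.16 ± 0.20) did not pass. The activator subunits Psme1 (0.46 ± 0.13, 0.0289) and Psme2 (0.82 ± 0.15, 0.00472) rose, against the direction of the heavy chains. In class II, H2-Aa had 64.3, 127, 92.4 and 67.1 CPM in VEH and 527, 277 and 279.7 CPM in VEH_7, and Cd74 had 214, 398, 336 and 246 CPM in VEH and 1359, 739.8 and 807 CPM in VEH_7. Both genes were lower in every VEH library than in any VEH_7 library. H2-Aa (-2.04 ± 0.30, 0.00144), Ciita (-2.01 ± 0.38, 0.00503), H2-Eb1 (-1.88 ± 0.36, 0.00523), Cd74 (-1.70 ± 0.27, 0.0021) and H2-Ab1 (-1.58 ± 0.31, 0.00547) fell, and H2-DMb2 did not pass (-1.18 ± 0.41, 0.0524).

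The ranges did not overlap for 13 class I members lower in VEH, 2 higher in VEH and all 11 class II members lower in VEH, beside 40.1% of all genes tested without overlap, 19.2% higher and 20.9% lower in VEH. The median log2 fold change was -0.74 over class I and -1.64 over class II members, beside 0.01 over all genes tested. Of 10 macrophage markers, 4 were lower and 0 higher in VEH, with sums of 2097 to 2852 CPM in VEH and 2665 to 3220.2 CPM in VEH_7, and 4 of 7 pan-leukocyte markers were lower and 0 higher. Beside 15.4% of all genes tested higher and 15.6% lower, 4 of 10 epithelial markers were higher and 0 lower in VEH. Their part in the result was not tested, and the set, the depth of its libraries and the tumour cannot be told apart. Calr, Erap1, Psme1, Pdia3 and Psmb9 in class I and H2-Oa in class II lost their calls without 1 or more single libraries: Calr without VEH_7 replicate 1 or 3 or VEH replicate 1 or 4 (0.0504 to 0.104), Erap1 without VEH_7 replicate 1 or 3 or VEH replicate 4 (0.0531 to 0.0885), Psme1 without VEH_7 replicate 2 or 3 or VEH replicate 1 or 4 (0.0526 to 0.0991), Pdia3 without VEH_7 replicate 1 or 2 or VEH replicate 1 or 2 (0.0616 to 0.0896), Psmb9 without VEH_7 replicate 1 or 3 or VEH replicate 2 or 4 (0.051 to 0.121) and H2-Oa without VEH_7 replicate 1 (0.0564), each value an adjusted p. H2-DMb2 was called without VEH replicate 2 (-1.42, 0.0445). With all 32 libraries in 1 fit, B2m (adjusted p = 0.0641), H2-D1 (0.119), H2-T22 (0.117), Psme2 (0.0855), Ctss (0.132) and H2-Ob (0.0853) lost their calls. Calr, Erap1, Psme1, Pdia3, Psmb9 and H2-Oa lost theirs in that fit too (0.0512 to 0.209).

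**Figure D5:**
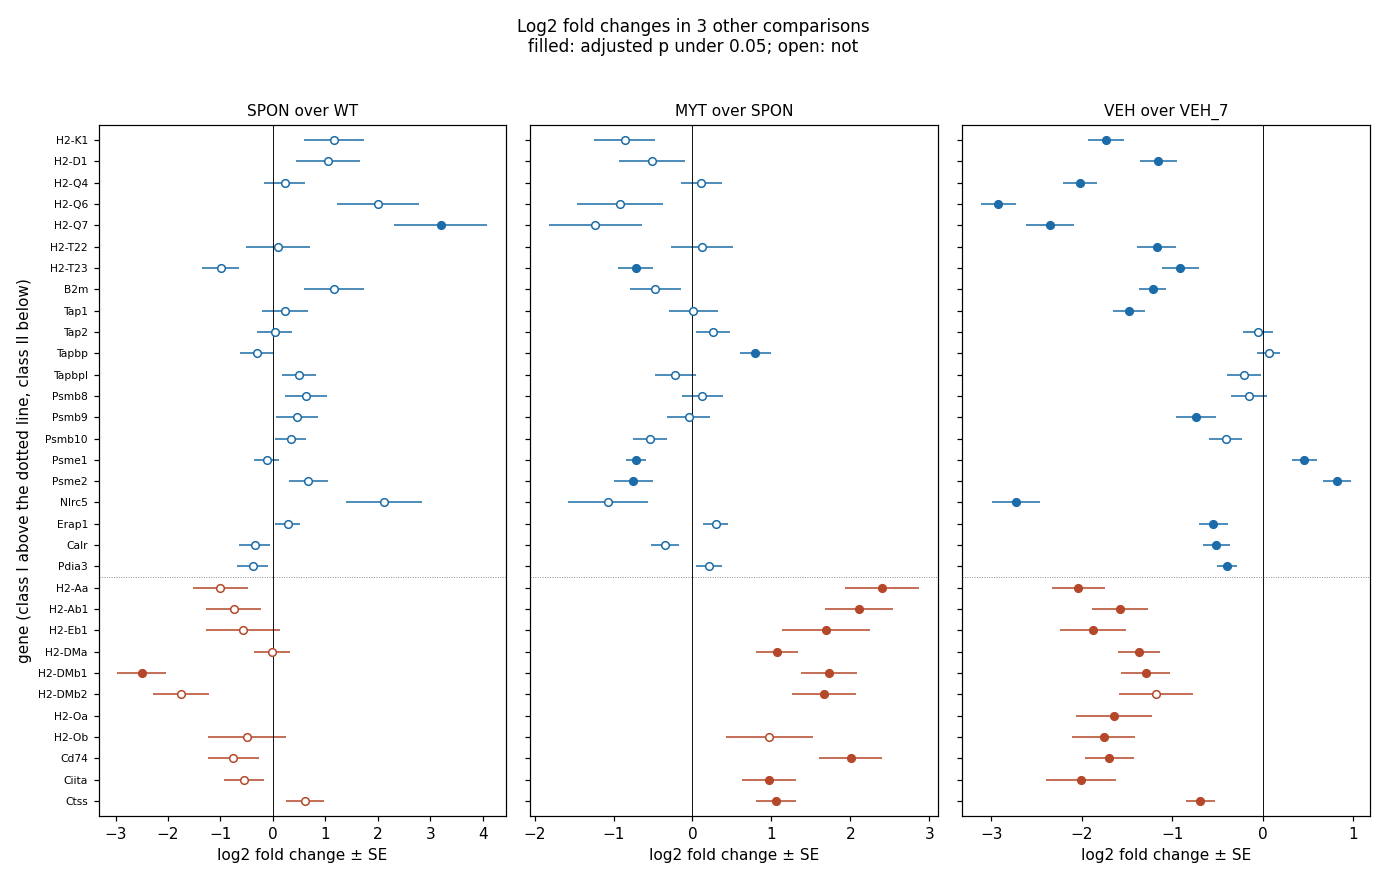
Log2 fold change ± SE of each member for SPON over WT (left), MYT over SPON (middle) and VEH over VEH_7 (right), with class I above and class II below the dotted line and filled points for adjusted p under 0.05. In the middle panel 9 class II points are filled above 0 and 1 class I point is, and in the right panel most points of both classes are filled below 0.

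Other genes of the pathway did not all follow the members. Over all genes tested in MYT against VEH, 30.5% were higher and 29% lower. In MYT against VEH, 11 of 17 proteasome core and regulator genes rose and 0 fell, with a median log2 fold change of 0.51, among them the core subunits Psma1 (0.98 ± 0.12, adjusted p = 3.12e-06), Psma5 (0.91 ± 0.14, 3.46e-05) and Psmb4 (0.93 ± 0.15, 4.45e-05). These core subunits are made in most cells, unlike the inducible Psmb8, Psmb9 and Psmb10. Of 19 regulators of MHC genes tested, 10 rose and 3 fell (median 0.39), with the smallest p for Jak1 (-0.87 ± 0.10, 1.85e-06), Ezh2 (1.01 ± 0.13, 5.81e-06) and Creb1 (0.63 ± 0.09, 1.79e-05), which encode a cytokine receptor kinase, a histone methyltransferase and a transcription factor. Of 10 other class II pathway genes tested, 0 rose and 6 fell (median -0.96), among them the lysosomal proteases Ctsb (-1.50 ± 0.13, 8.74e-08) and Lgmn (-1.54 ± 0.15, 2.2e-07) and the thiol reductase Ifi30 (-1.12 ± 0.16, 1.71e-05), the side on which Ctss lay. Of 14 other class I genes tested, 5 rose and 4 fell (median 0.03), near the shares over all genes tested. The smallest p there belonged to the heavy chain genes H2-Q2, H2-M3 and H2-M2, of which H2-M3 fell (-1.51 ± 0.25, 6.6e-05). H2-Q2 rose (adjusted p = 5.09e-06), with 0.989 to 2.79 CPM in MYT and 0 to 0.140 CPM in VEH, and so did H2-M2 (0.000249), with 0.138 to 4.06 CPM in MYT and 0 to 0.140 CPM in VEH, so their folds rest on 3 and 4 counts in all VEH libraries together. H2-Q2 stood at 10.5 to 20.3 CPM in WT, above every MYT library. In SPON it spanned 1.44 to 24.6 CPM, and the lowest SPON library lay within the MYT range.

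In the _7 set, 0 genes of these 4 lists were called between M20_7 and VEH_7, as for all genes.

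In MYT against SPON, 9.46% of all genes tested were higher and 19.1% lower. Of 17 proteasome genes, 3 rose and 2 fell (median log2 fold change 0.08), with the smallest p for Psma5 (0.91 ± 0.17, adjusted p = 0.000739), Psmb7 (0.78 ± 0.15, 0.00106) and Psma4 (-0.73 ± 0.20, 0.013). Of 19 regulators, 6 rose and 4 fell (0.17), with the smallest p for the transcription factor gene Nfkb1 (0.96 ± 0.19, 0.00123), the class II promoter factor Rfxank (-0.57 ± 0.14, 0.00494) and the kinase gene Jak2 (0.89 ± 0.23, 0.00808). Of 10 other class II genes, 4 rose and 2 fell (0.57). Ctsd (-3.27 ± 0.73, 0.00317) and Ifi30 (-1.04 ± 0.26, 0.00615) fell and March1, a ubiquitin ligase of class II molecules, rose (1.19 ± 0.33, 0.0117). SPON replicate 5 had 42265 CPM of the lysosomal protease Ctsd, against at most 954 CPM in WT. Summed CPM of the 11 genes of this list, Ctsd among them, had a median of 2203 in SPON and 2332 in MYT. The highest sum in SPON was 44135. Sums over the list do not show the Ctsd level of the other SPON libraries. Of 14 other class I genes, 2 rose and 3 fell (-0.66). H2-Q2 (-3.04 ± 0.46, 0.000185) and Sec61a1, a channel subunit of the endoplasmic reticulum (-0.71 ± 0.15, 0.00221), fell, and H2-M2 rose (0.000708) against 5 counts in all SPON libraries together.

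In SPON against WT, at most 1 gene of each list was called, beside 8.38% of all genes tested. Cd1d1, a class I-like chain that shows lipids, fell (-2.33 ± 0.38, adjusted p = 0.00651), and Lgmn (1.08 ± 0.23, 0.0197), the interferon gamma receptor chain Ifngr2 (0.96 ± 0.25, 0.0377) and Psmb4 (0.77 ± 0.21, 0.0474) rose. The genes with the next smallest p did not pass: Mr1 (-1.46) and Sec61a1 (0.74), Ctsd (3.55) and Cd86 (0.73), Irf8 (1.52) and Ezh2 (0.94), and Psmb1 (0.60) and Psmb3 (0.72).

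In VEH against VEH_7, 15.4% of all genes tested were higher and 15.6% lower. Of 12 other class I genes tested, 8 fell and 0 rose (median log2 fold change -0.83), with the smallest p for the heavy chains H2-T24 (-2.63 ± 0.39, adjusted p = 0.00156) and H2-Q1 (-2.42 ± 0.42, 0.00337) and the chaperone Hspa5 (-0.76 ± 0.12, 0.00228). Of 19 regulators, 5 fell and 0 rose (-0.24), among them Irf8 (-0.99 ± 0.13, 0.000761) and Creb1 (-0.70 ± 0.10, 0.00141). Irf8 encodes a transcription factor of the interferon response. Of 17 proteasome genes, 4 rose and 1 fell (0.13), led by Psma3 (0.56 ± 0.13, 0.0113), Psmb5 (0.88 ± 0.21, 0.0126) and Psmb3 (0.49 ± 0.13, 0.0187). Of 10 other class II genes, 1 rose and 2 fell: March1 (-1.24 ± 0.20, 0.0024) and the costimulatory receptor Cd40 (-1.40 ± 0.28, 0.00607) fell and the lysosomal protease Ctsl (0.80 ± 0.25, 0.039) rose.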

How the data were processed

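Total RNA of 33 mouse mammary tumour samples was sequenced. The submitters' processing notes name STAR 2.7.10a, HTSeq, edgeR and the build GRCm38; strandedness and annotation release are not given in the sources used here. The authors deposited raw read counts for 54532 genes, of which 791 had no symbol and held 0.0482% of the counts, and a second table of log2 CPM values, which differed from log2 CPM recomputed from the counts by at most 0.0576 and was not used further. With 33 columns for 33 samples, no column was left over.

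The members and gene lists were chosen with earlier results of these data known. Groups came from titles and treatment labels, and replicates were numbered in accession order and pair nothing. The p-values set each group difference against the spread between samples, which may be technical. Samples entered the fits as independent, although whether each tumour had its own host is not given. A chi-square test set each of the 90 same-group pairs apart beyond counting noise (lowest value per degree of freedom 16.12).

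Each comparison was fitted over all genes on its own groups in R 4.3.3 by the quasi-likelihood functions of edgeR 4.0.16 after filterByExpr and TMM, with Benjamini-Hochberg adjustment over all genes tested and a threshold of 0.05. The SE was the log2 fold change divided by the root of F. CPM used TMM factors over 32 grouped libraries, and exon lengths and positions came from GENCODE M21 on GRCm38. As alternatives, scaling used DESeq2 size factors, low counts were left unfiltered, the test was DESeq2 1.42.0 or limma 3.58.1 with voom, 1 fit took all 32 libraries, or 1 library was left out. The fits were tested on simulated data. Named in full were H2-K1, H2-D1, B2m, Tap1, Psmb8, Psmb9, Nlrc5, H2-Aa, H2-Ab1, H2-Eb1, Cd74, Ciita and the 3 members of each class with the smallest p. Of each further list, the 3 genes with the smallest p are named in each comparison between 2 groups with any call, apart from 1 gene that is not reported here. Csf1r, H2-Ea-ps and the ratio of H2-Aa to macrophage markers were chosen after their values were seen.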

Additional observations from a re-analysis of the deposited data

Results flagged for a closer look

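Single libraries stood far from the rest of their group for 9 of 128 combinations of a member and a group of 4 or 5 libraries, by the gap to the nearest library as a share of the range (chance gives about 1 in 20). In SPON, replicate 3 was high for H2-K1 (4892 CPM, nearest library 1480.5), H2-D1 (9149 CPM, nearest 2716), B2m (4279.8 CPM, nearest 1489) and Calr (1699 CPM, nearest 947). None of its class II genes stood apart in this way. SPON replicate 1 was high for Psme2 (163 CPM, nearest 64.8). In M20_7, replicate 2 was high for H2-Ob (11 CPM, nearest 3.24) and Tapbpl (36.4 CPM, nearest 27.6), and replicate 1 was low for Cd74 (574 CPM, nearest 1101). VEH replicate 3 was high for H2-T23 (17.3 CPM, nearest 13.8).

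For 7 of the 32 members the log2 fold change of RP-6306 over vehicle differed between the sets by the interaction test (MYT over VEH minus M20_7 over VEH_7). Over all genes, that test called 36% of 17095, a larger share than among the members. The differences were 1.63 for H2-Q4, 1.80 for H2-Q6, 1.73 for H2-Q7, 0.92 for H2-K1, 0.92 for Tap1, -0.97 for Psmb10 and -0.63 for Ctss. Leaving out single libraries ended 5 of these 7 calls, as given with the result, and H2-Q4 and Psmb10 kept theirs.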

How the results depend on the processing

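Of the fold changes of named members, 0 reversed where called, 137 combinations of a fold change and an alternative lost a call and 21 gained one, and 40 values called in neither fit changed sign. Counts of calls moved past 1.5 times as follows. In M20_7 against VEH_7, all genes called were 6 with no filter and 55 with DESeq2. With 1 fit over 32 libraries, all genes called were 5472 in SPON against WT, 3501 in the difference between sets and 2455 in VEH against VEH_7, against 1303, 6151 and 4817 in fits on the groups alone. That fit called 8 class I members in MYT against VEH, 6 class I and 2 class II members in SPON against WT (B2m, H2-K1, H2-Q6 and Nlrc5 among the higher ones), 2 class I and 0 class II members in the difference and 7 class I members in VEH against VEH_7. DESeq2 called 2648 genes, 4 class I and 2 class II members in SPON against WT and 2 class II members in the difference. Voom called 0 class I members in SPON against WT and 2 in MYT against SPON, and no filter left 0 class II members in the difference. The cause was not tested.

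Leaving out each library gave 506 to 1887 genes, 0 to 1 class I and 1 to 2 class II members in SPON against WT. It gave 2 to 9 class I and 0 to 2 class II members in the difference, 3 to 6 class II members in MYT against VEH and 3 to 7 class I members in MYT against SPON. DESeq2 size factors moved no group mean of the 12 role genes by more than its SD. With 3 to 5 libraries in most groups and low counts for H2-Oa, H2-Ob and H2-Eb1, small changes of these genes were not detectable. No paired analysis was possible because the replicates carry no shared numbers in the labels.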

Other observations

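One library had a title of the vehicle kind and a treatment label of RP-6306, and it entered no comparison. It had 382 CPM of H2-K1, 1133 CPM of H2-D1, 817 CPM of B2m, 45.2 CPM of Tap1 and 14.8 CPM of Nlrc5. Of the class II genes it had 94.9 CPM of H2-Aa, 89.2 CPM of H2-Ab1, 312 CPM of Cd74, 6.18 CPM of Ciita and 189 CPM of Ctss. Its summed CPM was 5318 over the class I and 717 over the class II members, beside 807 over the epithelial and 1727 over the macrophage markers.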
